A study of Mus musculus with 6 samples.

Results

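Translation initiation factors are the proteins that bring a ribosome to the start codon of an mRNA. The members were taken by name from the array's platform annotation: rows with a single gene symbol that begins with Eif and a digit from 1 to 6, without Eif2ak2, Eif2s3x, Eif2s3y and pseudogene symbols. A symbol with several rows was represented by the row with the highest mean. This gave 48 genes among the 22180 symbols measured by a row with 1 symbol: 4 of the eIF1 type, 12 of eIF2, 12 of eIF3, 15 of eIF4, 4 of eIF5 and 1 of eIF6. The rule itself used names and means over all 6 mice and no difference between genotypes. It was set, however, with earlier results of these data known. All 48 symbols were found in the RefSeq gene table. No row carried Eif1, Eif2s1, Eif3g or Eif4g1 as its single symbol. These genes are therefore not among the members, and nothing is shown about them here. One member, Eif2c5, carries a symbol of the older naming of Argonaute genes, whose proteins act in RNA silencing. It is kept because its symbol fits the rule.

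RNA came from colonic mucosa that looked normal and lay beside tumours, from 2 Mthfd1S+/- and 4 wild-type (WT, Mthfd1S+/+) male BALB/c mice, with 1 Affymetrix Mouse Gene 2.0 ST array per mouse. Mthfd1S+/- mice are heterozygous for a deficiency in the synthetase activity of MTHFD1, a cytosolic folate enzyme that joins formate to tetrahydrofolate. Both groups had been backcrossed to BALB/cAnN for at least 10 generations. Both had been given azoxymethane (AOM), which causes colon tumours, in an intraperitoneal dose of 6 mg/kg, and then 2 cycles of 4 days with 3% dextran sulfate sodium, which injures the epithelium, at weeks 1 and 4. They were killed 13 weeks after the injection. Their age label is 7 months, whereas by the protocol they were injected when 3 months old. No untreated mice were compared, so every value is from colon after carcinogen and injury.

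Initiation starts when eIF1, eIF1A, eIF3 and eIF2 with GTP and the initiator tRNA load onto the small ribosomal subunit. The eIF4 factors bind the mRNA cap, unwind the leader and recruit this complex, which scans to a start codon. There eIF5 triggers GTP hydrolysis, and eIF5B promotes joining of the large subunit, which eIF6 keeps apart beforehand. Cells throttle the process at a pair of points. Stress kinases phosphorylate eIF2, which then blocks its exchange factor eIF2B, and the mTOR kinase controls the 4E-binding proteins that sequester eIF4E. In the colon the crypt epithelium renews continuously and makes large amounts of protein, which depends on this machinery.

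All values are deposited log2 array values, and every difference is Mthfd1S+/- minus WT on that scale. Genotypes were compared with limma over all 23521 rows with 1 symbol, and adjusted p-values are Benjamini-Hochberg values over those rows with a threshold of 0.05. Array medians ran from 5.49 to 5.53, and all pairs of arrays correlated at 0.986 to 0.990 over all rows. Precision is limited by having 6 arrays, and the standard error (SE) of a difference had a median of 0.106 over the rows. Mthfd1 itself read 7.96 and 7.63 in Mthfd1S+/- mice, against 7.64, 7.63, 7.50 and 7.75 in WT mice. Its groups overlapped, and the difference was 0.17 ± 0.12 (SE) with an adjusted p of 0.890. Whether the allele alters Mthfd1 mRNA is not stated, and the row therefore serves as no check of genotype.

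By the row that represents each, the initiation factors measured here differed little between genotypes. None of the 48 members passed the adjusted threshold in limma, and their adjusted p-values ran from 0.855 to 0.996. The same was true of all rows, with 0% past it and a smallest adjusted p of 0.837. At p under 0.05 before adjustment there were 0 higher and 0 lower members in Mthfd1S+/- mice, against 3.36% of all rows higher and 2.44% lower. The smallest unadjusted p of the family was 0.0825, for Eif4e1b. The groups did not overlap for 3 members, Eif1ax, Eif3b and Eif3f, all higher in Mthfd1S+/- mice. That is 6.25% of the family, and 7.96% of all rows were higher without overlap. Lower without overlap were 0 members, against 6.04% of all rows. These counts use the row of highest mean per symbol, and the other rows of Eif4a2 were lower without overlap.

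The intervals of the differences were narrow. By the row that represents each, the 95% confidence interval of 48 of 48 members lay within a 1.5-fold difference in either direction, against 91.3% of all rows. For 39 of 48 it lay within 1.25-fold, against 45.3% of all rows. The 9 with wider intervals were Eif1ax, Eif1b, Eif2s2, Eif3j1, Eif4a3, Eif4b, Eif4e1b, Eif4ebp2 and Eif5a2. Other rows of Eif4a2, of lower mean, had intervals of -0.67 to -0.26 and -0.69 to 0.083, both reaching beyond 1.5-fold. The estimated difference itself was under 0.1 in size for 42 of 48 members, against 58.1% of all rows. Of the 48 members, 45 had a mean above the median level of the rows tested. Rows above that level had a smaller standard deviation over the mice, with a median of 0.109, against 0.126 over all rows. How far level accounts for these contrasts with all rows was not tested.

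The median difference over the family was 0.021, beside 0.012 over all rows. Differences were positive for 33 of 48 members (68.8%), against 54.0% of all rows. With each array centred on its median, 23 of 48 (47.9%) were positive, with a family median of -0.0060 and an all-row median of -0.015. The count of positive signs thus depended on the scaling of the arrays. Without WT replicate 3 the count was 26 of 48, and the same without Mthfd1S+/- replicate 1.

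**Figure D1:**
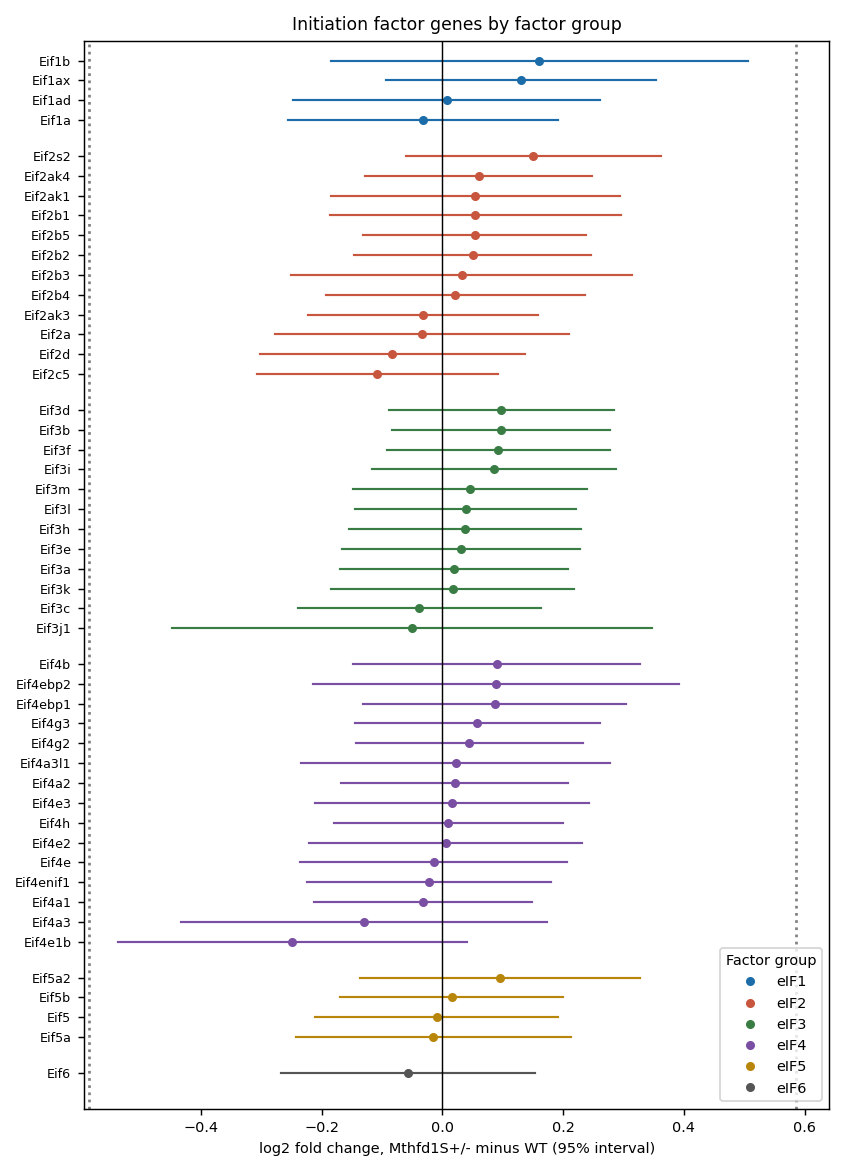
Difference of each of the 48 initiation factors between genotypes (x axis, log2, Mthfd1S+/- minus WT), grouped by factor, with points for the estimate, bars for the 95% confidence interval from limma and dotted lines at 1.5-fold. Every bar crosses 0 and lies within 1.5-fold; Eif1b has the most positive and Eif4e1b the most negative estimate.

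The family was also steady from mouse to mouse. The standard deviation (SD) over the 6 mice had a median of 0.082 over the members, against 0.126 over all rows and 0.109 over the rows above the median level. Of all rows, 20.6% had an SD below the family's median. The steadiest of the rows that represent members was that of Eif4a1, the RNA helicase of the cap-binding complex. Its values spanned 0.109 over all mice (SD 0.036), whereas another row of Eif4a1, of lower mean, had an SD of 0.116. Eif5b, the GTPase of subunit joining, had an SD of 0.041, and the eIF3 subunit Eif3l one of 0.042. The most variable were Eif3j1 (SD 0.235), a loosely bound eIF3 subunit, Eif1b (0.212), a paralogue of the start-codon factor eIF1, and Eif4e1b (0.198), an oocyte-enriched relative of eIF4E.

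**Figure D2:**
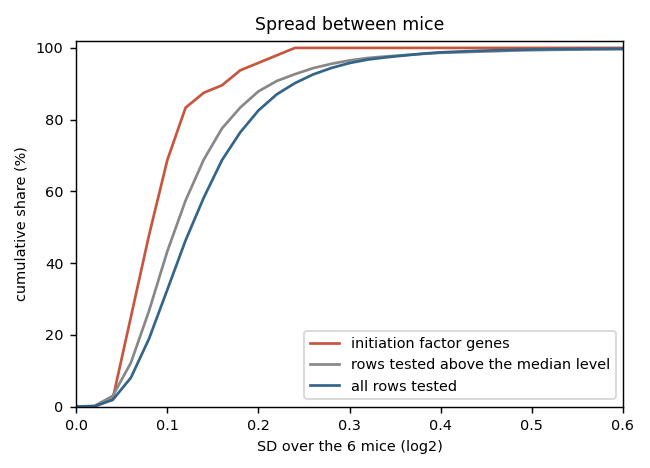
Cumulative share (y axis, %) of the 48 initiation factors, of the rows above the median level and of all 23521 rows tested whose SD over the 6 mice is at or under the value on the x axis (log2). From an SD of 0.06 upwards the curve of the initiation factors lies above the others up to its end. Its median is 0.082, against 0.126 over all rows, and it ends at 0.235.

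To compare mice, each member was set relative to its own mean over the 6 mice and averaged over the family. The averages were 0.032 and -0.0048 in the Mthfd1S+/- mice, against 0.020, 0.017, -0.041 and -0.022 in WT mice 1 to 4. The Mthfd1S+/- mean exceeded the WT mean by 0.020, less than the SD of the WT mice, 0.030. WT replicate 3 was the low mouse: 35 of 48 members lay below their own mean there (72.9%, against 52.9% of all rows). It held the lowest value of the 6 mice for 16 of 48 members (33.3%, against 15.6% of all rows). Mthfd1S+/- replicate 1 held the highest value for 15 of 48 (31.3%, against 19.5% of all rows).

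Cell type markers also differed between mice. The epithelial list, 14 of 14 genes measured with mean values from 8.83 to 12.4, averaged -0.0047 and -0.087 in Mthfd1S+/- mice, against 0.0037, 0.027, 0.056 and 0.0046 in WT mice. Of these genes, 12 had negative and 2 positive differences, with a median of -0.063. The 12 smooth muscle markers, with mean values from 5.77 to 12.6, averaged -0.057 and 0.40 in Mthfd1S+/- mice, against -0.17, -0.26, -0.028 and 0.11 in WT mice. All 12 had positive differences, with a median of 0.25, and they stood highest in Mthfd1S+/- replicate 2. The 7 proliferation markers averaged 0.15 and -0.17 in Mthfd1S+/- mice, against 0.16, 0.098, -0.076 and -0.17 in WT mice. The 5 adipocyte markers averaged -0.36 and -0.40 in Mthfd1S+/- mice, against 0.090, -0.046, 0.89 and -0.18 in WT mice, so WT replicate 3 stood high in them. In bulk tissue, fewer cells of a type and less RNA per cell cannot be told apart. With the smooth muscle average as a covariate the members' differences ran from -0.28 for Eif4e1b to 0.21 for Eif2b3, with a median of 0.045, and 9 of 48 had the other sign. None of the members passed the adjusted threshold in that fit. The part of the other cell types in the initiation factor values was not tested.

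**Figure D3:**
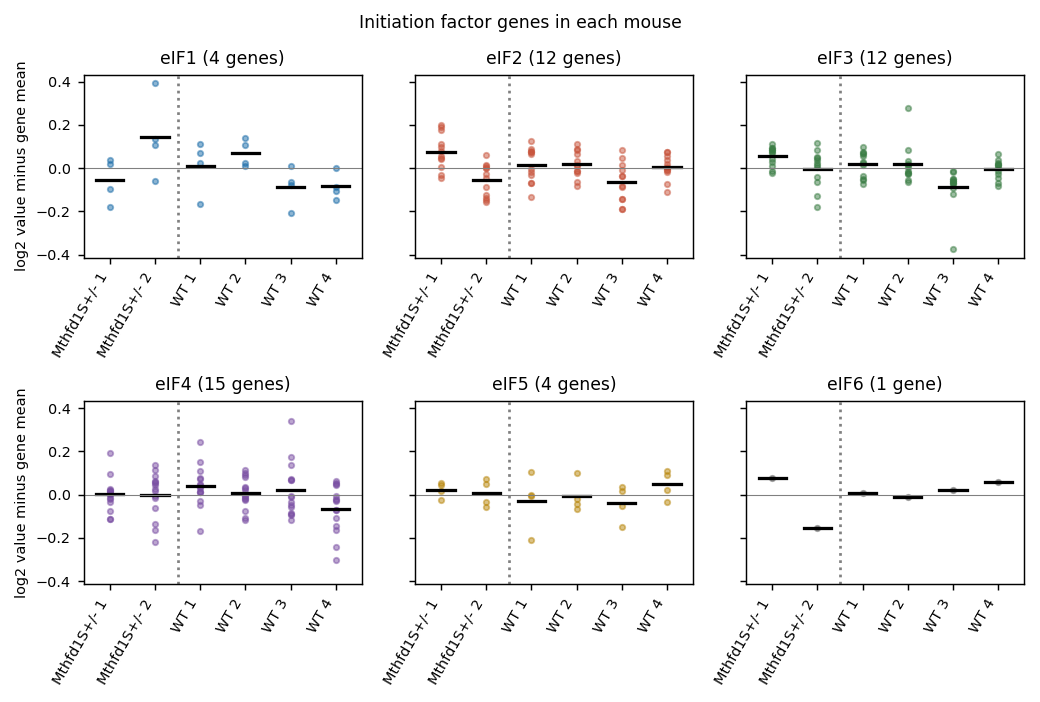
Level of each member in each mouse minus its own mean over the 6 mice (y axis, log2; points are genes) in 1 panel per factor group, Mthfd1S+/- mice left of WT mice, with black bars at the average over the group's members. The eIF3 and eIF2 averages are highest in Mthfd1S+/- replicate 1 and lowest in WT replicate 3, and no factor group separates the genotypes.

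Before the factor groups are described, the promoters of the family bear on which members share a sequence element. RefSeq promoter windows of GRCm38.p6, from 250 bases before to 50 after a gene's start, were at hand for 38 of the 48 members (51 windows). They were searched for CACGTG, the E-box read by MYC and related factors, which is its own reverse complement and so is found on both strands at once. It occurred for 9 of 38 members (23.7%), against 8.09% of all 27020 genes with a window and 8.91% of the 17490 protein-coding ones. The 9 were Eif1b, Eif3a, Eif3f, Eif3k, Eif4a1, Eif4e, Eif4h, Eif5a and Eif5a2. Their median difference between genotypes was 0.017, with 6 of 9 positive, beside 0.022 over the 29 members with a window and no match. A match is a description of the letters and not a binding site. The stretches upstream of the start are shown for 3 partners of the cap-binding complex, for 2 eIF3 subunits and for the paralogues Eif1b and Eif5a2, 5′ to 3′ on the gene's strand, with the E-box in capitals.
Eif4e, chr3:138527028-138527057, plus strand: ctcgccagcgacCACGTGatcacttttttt
Eif4e, chr3:138527192-138527221, plus strand: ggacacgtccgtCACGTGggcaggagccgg
Eif4a1, chr11:69672595-69672624, minus strand: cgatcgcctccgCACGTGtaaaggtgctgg
Eif4h, chr5:134639488-134639517, minus strand: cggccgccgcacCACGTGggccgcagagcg
Eif3f, chr7:108934335-108934364, plus strand: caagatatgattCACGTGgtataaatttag
Eif3k, chr7:28981915-28981944, minus strand: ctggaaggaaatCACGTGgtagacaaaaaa
Eif1b, chr9:120492570-120492599, plus strand: cgtgcggacggtCACGTGgcggcggcgcgc
Eif5a2, chr3:28781123-28781152, plus strand: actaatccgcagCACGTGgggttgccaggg
Eif5a2, chr3:28781148-28781177, plus strand: cagggcgagcttCACGTGacggggcgggac

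The eIF1 group holds the small factors that keep the scanning ribosome open and select the start codon. Its median difference was 0.069, with 3 of 4 positive. Eif1ax, the X-linked gene of eIF1A, read 8.65 and 8.75 in Mthfd1S+/- mice, against 8.64, 8.63, 8.40 and 8.62 in WT mice. WT replicate 3 was the low sample, and the groups came close to meeting, at 8.651 in Mthfd1S+/- replicate 1 and 8.636 in WT replicate 1. Eif1ax differed by 0.13 ± 0.098 (SE; 95% interval -0.094 to 0.35; adjusted p = 0.895 in limma; exact permutation p = 0.267). Its autosomal paralogue Eif1a differed by -0.032 ± 0.098, with overlapping groups. Probes for such close paralogues may read both transcripts.

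Eif1b, which carries the E-box shown above, read 7.83 and 8.41 in Mthfd1S+/- mice, against 7.85, 8.04, 8.02 and 7.93 in WT mice. One Mthfd1S+/- mouse was thus the lowest of all 6 and the other the highest. The difference of 0.16 ± 0.15 (SE; 95% interval -0.19 to 0.51; adjusted p = 0.917) rested on Mthfd1S+/- replicate 2. It was 0.45 without Mthfd1S+/- replicate 1 and -0.13 without Mthfd1S+/- replicate 2. That mouse was also highest in smooth muscle markers, and with their average as a covariate the difference of Eif1b was -0.017. Since the same mouse is the extreme in both, smooth muscle content cannot be told apart from this mouse, and no cause was tested. Eif1ad, named for its eIF1A domain, differed by 0.0074 ± 0.11.

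The eIF2 group covers the GTPase that carries the initiator tRNA, its exchange factor, its kinases and other initiator proteins. The group's median difference was 0.041, with 8 of 12 positive. Eif2s2, the β subunit, was the only subunit of eIF2 itself among the members. It read 7.30 and 7.12 in Mthfd1S+/- mice, against 6.98, 7.12, 7.03 and 7.11 in WT mice. The groups met at 7.124, the value of both Mthfd1S+/- replicate 2 and WT replicate 2. The difference was 0.15 ± 0.092 (SE; 95% interval -0.060 to 0.36; adjusted p = 0.870 in limma).

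All 5 subunits of eIF2B, which reloads eIF2 with GTP, had positive differences between 0.021 and 0.054, each smaller than its SE. Of all rows, 54.0% were positive. With each array centred on its median, Eif2b4 was negative (-0.0062). Without Mthfd1S+/- replicate 1, Eif2b2 (-0.027), Eif2b3 (-0.13) and Eif2b5 (-0.0091) were negative. The other subunits stayed positive in each setting. The average of all 5 relative to the 6-mouse mean was 0.082 and -0.026 in Mthfd1S+/- mice, against 0.038, 0.047, -0.10 and -0.038 in WT mice. Mthfd1S+/- replicate 1 was the highest mouse and WT replicate 3 the lowest, and Mthfd1S+/- replicate 2 lay among the WT mice. Eif2b5, the catalytic subunit, differed by 0.053 ± 0.081 and Eif2b1 by 0.054 ± 0.11.

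The 3 kinases of eIF2 among the members differed little. Eif2ak2 was left out by the rule and is not covered. Eif2ak1, the heme-regulated kinase, read 8.54 and 8.22 in Mthfd1S+/- mice, against 8.27, 8.32, 8.36 and 8.35 in WT mice. The WT mice lay between the Mthfd1S+/- mice, and the difference was 0.054 ± 0.10. Eif2ak3, the endoplasmic reticulum stress kinase PERK, differed by -0.032 ± 0.083. Eif2ak4, the amino acid sensor GCN2, differed by 0.060 ± 0.082. The arrays measure transcripts, and kinase activity was not measured.

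Eif2a and Eif2d can deliver initiator tRNA without eIF2 in the test tube. Eif2a differed by -0.034 ± 0.11 and Eif2d by -0.083 ± 0.096, and in both WT replicate 3 lay below the other WT mice. Eif2c5 read 4.950 and 4.797 in Mthfd1S+/- mice, against 5.023, 4.933, 5.031 and 4.938 in WT mice. Its groups overlapped, with Mthfd1S+/- replicate 2 the lowest mouse, and the difference was -0.11 ± 0.087 (SE; adjusted p = 0.901).

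The eIF3 complex is the large scaffold on which the small ribosomal subunit, eIF2 and the cap-binding complex meet. Differences were positive for 10 of its 12 members (83.3%), against 54.0% of all rows, with a median of 0.038. With each array centred on its median, Eif3a (-0.00825) and Eif3k (-0.011) were also negative. Without Mthfd1S+/- replicate 1, Eif3h (-0.030) and Eif3k (-0.058) were negative. The other signs held in both settings. All 12 lay below their own mean in WT replicate 3, and 7 of 12 had their lowest value there. Mthfd1S+/- replicate 1 had the highest value for 7 of 12. The group averaged 0.055 and -0.0025 in Mthfd1S+/- mice, against 0.018, 0.020, -0.087 and -0.0037 in WT mice. The genotypes overlapped in this average, since Mthfd1S+/- replicate 2 lay below WT replicates 1 and 2.

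Eif3b, a core subunit with a propeller fold, read 9.27 and 9.24 in Mthfd1S+/- mice, against 9.21, 9.13, 9.13 and 9.14 in WT mice. Both Mthfd1S+/- mice lay above all 4 WT mice, of which WT replicate 1 was the nearest. The difference was 0.097 ± 0.079 (SE; 95% interval -0.084 to 0.28; adjusted p = 0.902 in limma). Its exact permutation p was 0.0667, the smallest that 15 splits of 6 mice allow. Eif3f, a subunit with an MPN domain and an E-box upstream of its start, read 9.83 and 9.80 in Mthfd1S+/- mice, against 9.68, 9.73, 9.69 and 9.79 in WT mice. WT replicate 4 came close to the lower Mthfd1S+/- mouse, at 9.793 beside 9.804. The difference was 0.093 ± 0.081 (SE; 95% interval -0.092 to 0.28; adjusted p = 0.907; exact permutation p = 0.133).

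Eif3f is also known for a terminal oligopyrimidine start, the element through which mTOR controls the translation of many ribosomal protein mRNAs. The window around its RefSeq start, with the pyrimidine run from the start base in capitals, was as follows.
Eif3f, chr7:108934400-108934429, plus strand: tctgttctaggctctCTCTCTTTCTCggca
A start with C followed by 4 or more pyrimidines was found in 2 of the 51 member windows (3.92%), those of Eif3f and Eif2c5, and in 2.51% of all windows. An annotated start need not be the start used in colon.

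Of the other core subunits, Eif3i differed by 0.085 ± 0.088, Eif3a by 0.019 ± 0.082 and Eif3c by -0.038 ± 0.088. The 7 further stable subunits all had positive differences, from 0.017 for Eif3k to 0.098 for Eif3d, a subunit that can bind the cap of some mRNAs itself. Of these, Eif3h and Eif3k changed sign with the setting, as given above. Eif3d read 9.21 and 9.31 in Mthfd1S+/- mice, against 9.16, 9.13, 9.14 and 9.21 in WT mice, and the groups overlapped at 9.21. Another row of the same gene differed by 0.17 ± 0.13. Eif3j1 read 6.59 and 6.31 in Mthfd1S+/- mice, against 6.58, 6.76, 6.11 and 6.55 in WT mice. WT mice held both extremes of Eif3j1, and its difference was -0.051 ± 0.17.

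**Figure D4:**
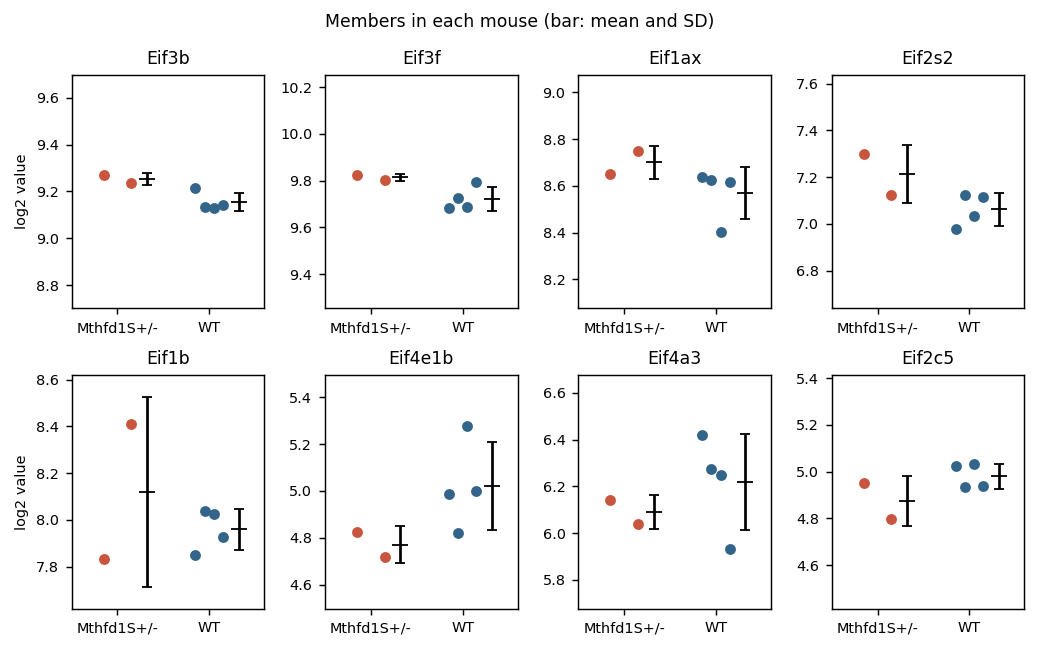
Level in every mouse (y axis, deposited log2 value) of the 8 members whose groups do not overlap or that have the 3 highest or 3 lowest differences, Mthfd1S+/- mice left of WT mice, with black bars for the group mean and SD. The groups are apart for Eif3b, Eif3f and Eif1ax only, and the Mthfd1S+/- mice lie on both sides of the WT mice for Eif1b.

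The eIF4 group binds the cap and prepares the mRNA. Its median difference was 0.016, with 10 of 15 positive. Eif4e, the cap-binding protein, read 8.73 and 8.86 in Mthfd1S+/- mice, against 8.91, 8.88, 8.71 and 8.73 in WT mice. The Mthfd1S+/- mice lay inside the WT range, and the difference was -0.015 ± 0.097. Both printed E-boxes of Eif4e lie upstream of its start. Eif4e2, a cap-binding repressor, differed by 0.0050 ± 0.099 and Eif4e3 by 0.016 ± 0.099. Eif4e1b read 4.83 and 4.72 in Mthfd1S+/- mice, against 4.99, 4.82, 5.28 and 5.00 in WT mice. Mthfd1S+/- replicate 1 and WT replicate 2 had nearly the same value, and WT replicate 3 was the high mouse. The difference was -0.25 ± 0.13 (SE; 95% interval -0.54 to 0.040; adjusted p = 0.855 in limma; exact permutation p = 0.267). These values lie close to those of the dimmest 25% of rows, which ended at 4.69, and without detection calls they may be background.

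The 4E-binding proteins, which hold eIF4E until mTOR releases it, had positive differences within their SE. Eif4ebp1 read 7.83 and 7.94 in Mthfd1S+/- mice, against 7.87, 7.75, 7.89 and 7.68 in WT mice, a difference of 0.086 ± 0.095. Eif4ebp2 read 9.06 and 9.22 in Mthfd1S+/- mice, against 9.11, 9.06, 9.26 and 8.78 in WT mice, a difference of 0.088 ± 0.13. The groups of both overlapped, and WT replicate 4 was the lowest mouse in both. Eif4enif1, which binds eIF4E in the nucleus and in mRNA granules, differed by -0.023 ± 0.088. The scaffolds Eif4g2, which lacks the eIF4E-binding site, and Eif4g3 differed by 0.044 ± 0.082 and 0.058 ± 0.089.

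Eif4a1, the main helicase gene, read 12.50 and 12.42 in Mthfd1S+/- mice, against 12.50, 12.48, 12.47 and 12.53 in WT mice. It differed by -0.032 ± 0.079, and Mthfd1S+/- replicate 2 was the lowest mouse. Another row of Eif4a1 differed by -0.10 ± 0.10, with overlapping groups. The helicase cofactors Eif4b and Eif4h differed by 0.090 ± 0.10 and 0.0098 ± 0.083. Eif4a3, a helicase of the exon junction complex, read 6.14 and 6.04 in Mthfd1S+/- mice, against 6.42, 6.28, 6.25 and 5.93 in WT mice. Its WT replicate 4 was the lowest mouse, and the difference was -0.13 ± 0.13 (SE; adjusted p = 0.927). The related row Eif4a3l1 differed by 0.022 ± 0.11.

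Eif4a2, the second cytoplasmic helicase, gave different answers by row. The row that represents it, with the highest mean, differed by 0.020 ± 0.082, with overlapping groups. A row of lower mean with the same single symbol read 6.17 and 6.09 in Mthfd1S+/- mice, against 6.48, 6.64, 6.65 and 6.63 in WT mice. All 4 WT mice lay above both Mthfd1S+/- mice, and the difference was -0.46 ± 0.089 (SE; 95% interval -0.67 to -0.26). Its unadjusted p was 0.00069, its adjusted p 0.837, and its exact permutation p 0.0667, the smallest possible. Another row of Eif4a2 read 7.880 and 7.995 in Mthfd1S+/- mice, against 8.102, 8.663, 8.188 and 8.019 in WT mice, a difference of -0.31 ± 0.17 without overlap. Introns of Eif4a2 host small nucleolar RNAs, and other rows at this gene carry their symbols beside that of Eif4a2. Which transcripts these rows read was not tested.

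The eIF5 group had a median difference of 0.0029, with 2 of 4 positive. Eif5, which triggers GTP hydrolysis by eIF2, differed by -0.0093 ± 0.088, and Eif5b by 0.015 ± 0.081. Eif5a, the only protein family known to carry hypusine and now also placed in elongation, differed by -0.015 ± 0.10. Its paralogue Eif5a2, with a pair of E-boxes, read 6.07 and 6.09 in Mthfd1S+/- mice, against 5.81, 6.00, 6.04 and 6.11 in WT mice. WT replicate 1 was low and WT replicate 4 the highest, and the difference was 0.095 ± 0.10. Eif6, the only member of its group, read 9.29 and 9.06 in Mthfd1S+/- mice, against 9.22, 9.20, 9.23 and 9.27 in WT mice. The Mthfd1S+/- mice lay on both sides of the narrow WT range, and the difference was -0.057 ± 0.092.

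Genes that work with the initiation factors but lack an Eif symbol split evenly by sign. Of 31 measured initiation partners, 15 had positive and 16 negative differences, with a median of -0.0088. Before adjustment, p was under 0.05 for 0 higher genes and 1 lower gene, against 3.36% of all rows higher and 2.44% lower. That gene was Ddx3x, an RNA helicase that helps ribosomes through structured leaders, with 9.49 and 9.45 in Mthfd1S+/- mice, against 9.68, 9.66, 9.64 and 9.70 in WT mice. Both Mthfd1S+/- mice lay below all WT mice, with a difference of -0.20 ± 0.078 (SE), an unadjusted p of 0.0307 and an adjusted p of 0.837. Mcts2, a paralogue of the reinitiation factor gene Mcts1, read 6.36 and 6.60 in Mthfd1S+/- mice, against 6.90, 7.03, 6.67 and 6.53 in WT mice. WT replicate 4 lay below the higher Mthfd1S+/- mouse, and the difference was -0.31 ± 0.15 (SE; adjusted p = 0.846). Dhps, which takes part in making the hypusine of eIF5A, read 6.69 and 6.38 in Mthfd1S+/- mice, against 6.73, 6.73, 6.70 and 6.72 in WT mice. Its groups did not overlap, and Mthfd1S+/- replicate 2 set most of its difference of -0.19 ± 0.10. Rps6kb2, an S6 kinase downstream of mTOR, differed by -0.21 ± 0.11, also without overlap. Mknk1 (-0.13 ± 0.082) and Ppp1r15b (-0.16 ± 0.089) were lower without overlap too, and Paip2b (0.12 ± 0.089) was higher without overlap. Of all rows, 6.04% were lower and 7.96% higher without overlap.

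Of 13 measured elongation and termination factors, 7 had positive differences, with a median of 0.0095, and p before adjustment was under 0.05 for 0 of them. Eef2k, the kinase that inhibits the elongation factor eEF2, differed by -0.17 and Eef2 by 0.13. The termination factor genes Gspt2 and Etf1 differed by -0.096 and -0.080. Of 24 target genes of the integrated stress response, which phosphorylated eIF2 sets off, 12 had positive and 12 negative differences, with a median of 0.0077. Before adjustment, p was under 0.05 for 0 higher genes and 1 lower one, against 3.36% of all rows higher and 2.44% lower. The lower one was Atf3, a stress-induced transcription factor. Atf3 read 8.14 and 7.40 in Mthfd1S+/- mice, against 8.64, 8.63, 8.53 and 8.13 in WT mice. WT replicate 4 lay just below the higher Mthfd1S+/- mouse, and the difference was -0.71 ± 0.21 (SE; unadjusted p = 0.0098; adjusted p = 0.837). Mthfd2, a mitochondrial folate enzyme, differed by -0.15 and Ddit4, an inhibitor of mTOR signalling, by 0.30. Slc7a5, an amino acid transporter, read 8.12 and 8.06 in Mthfd1S+/- mice, against 7.92, 7.87, 8.01 and 8.04 in WT mice. Both Mthfd1S+/- mice lay above all WT mice, as in 7.96% of all rows, and the difference was 0.13 ± 0.087 (SE; adjusted p = 0.880).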

How the data were processed

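The authors deposited log2 values per transcript cluster and array, and per the submitters' processing notes the software was Affymetrix Expression Console. Its version, algorithm, background correction and build were not given in the sources used here. Base 2 was inferred from the range of 1.06 to 13.5, since base 10 would exceed a 16-bit scanner. Of 41345 rows, 23521 with 1 platform symbol were tested, 1814 had several and 16010 none. Another 9 rows name an Eif symbol among several and were not used. No filter on low values was applied, and all 48 members had means above those of the dimmest 25% of rows.

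The genotype fit used R 4.3.3 and limma 3.58.1 (lmFit, then eBayes) without covariates. Its tests were two-sided, on 4 residual plus 4.35 prior degrees of freedom, with Benjamini-Hochberg adjustment over 23521 rows. Exact permutation tests on the absolute difference of means ran over 15 splits. The steps were tested on simulated data. Promoter sequences are from RefSeq. Per the labels, arrays are biological replicates of separate mice.

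Members and lists were chosen with earlier results of these data known. Every member may be named, and those without overlap or with the 3 highest or 3 lowest differences had to be given in every mouse; others given so are examples by role. Other lists name up to 4 genes of smallest p, and the list of partners also names its further genes without overlap. Marker lists whose values are not in the main text are given by median difference and count of positive differences, beside 54.0% of all rows positive. They were goblet cells (-0.0063, 2 of 8), neurons and glia (0.33, 9 of 9), fibroblasts (0.17, 8 of 8) and T cells (0.018, 4 of 7). The rest were B and plasma cells (-0.094, 1 of 7), macrophages (0.063, 5 of 7) and endothelium (-0.013, 1 of 6). Alternatives left out each mouse or changed the scaling, rows, covariates or moderation.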

Additional observations from a re-analysis of the deposited data

Results flagged for a closer look

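WT replicate 3 stood far below the other WT mice in 3 of 48 members, by the gap to its nearest neighbour over the range of the 4 WT mice. The ratio was 0.909 for Eif1ax, 0.908 for Eif2a and 0.882 for Eif2d, all above Dixon's 95% critical value for 4 samples. Chance alone puts about 1 in 20 groups past that value.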

How the results depend on the processing

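The count of members past the adjusted threshold was 0 under every alternative. The median difference moved by less than the SD of the WT mice, 0.030, in every alternative and ranged from -0.0060 with arrays centred on their medians to 0.045 with the smooth muscle average as a covariate, and 0.0040 to 0.043 when single mice were left out. Members higher at an unadjusted p under 0.05 numbered 0 to 1 when single mice were left out (Eif1b without Mthfd1S+/- replicate 1) and 1 without moderated variances (Eif3b). Members lower numbered 0 to 1 when single mice were left out (Eif4e1b without WT replicate 2) and 1 with the row of lowest mean per symbol (Eif4a2, -0.46). Eif1b ranged from -0.13 to 0.45 over the left-out mice and was -0.017 with the smooth muscle covariate. Other sign changes, up to 15 of 48 members, were of differences smaller than their SE. Whether replicate numbers pair the mice was not settled. The deviations of 2 Mthfd1S+/- mice from their mean mirror each other, so the correlations of 0.12 and -0.044 cannot decide it. With a replicate block the median was 0.0083, 25 of 48 were positive and the smallest adjusted p in limma was 0.536. An identifier letter is A for replicate 1 of each genotype and B for the other mice. With it as a covariate the median was 0.015, 30 of 48 were positive and the smallest adjusted p in limma was 0.665. With 2 Mthfd1S+/- arrays, the median SE of 0.106 limits what can be resolved for a single gene.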
